A study of Rattus with 9 samples.

Results

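The 9 genes described here encode T cell checkpoint and costimulatory proteins: Pdcd1, Cd274, Ctla4, Lag3, Havcr2, Tigit, Icos, Tnfrsf4 and Foxp3. They were chosen by gene symbol, and all 9 were found among the 23836 symbols of the deposited count matrices. The tissue was the extrahepatic bile duct of Sprague-Dawley rats (male and female, 6 to 8 weeks old per the study), profiled by droplet single-cell RNA sequencing, in which each unique molecular identifier (UMI) counts 1 captured RNA molecule. The sham group, operated on without transplantation, had 3 samples with a single library each. After liver transplantation (LT), done by the cuff technique with a period of warm ischemia in the donor, bile ducts were taken on day 1, 3 or 7 in an arm with LT alone (ctrl) and an arm in which hepatic arterial flow was also raised by tying the splenic and gastroduodenal arteries (treat). Each day of each arm was 1 sample of 3 libraries, except treat day 3, of which 2 libraries were analysed and library 1 was not analysed here. The labels do not say which libraries came from separate rats, so the libraries of a sample were summed, and the p-values measure the spread between these samples, which may in part be technical.

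T cells are activated when their antigen receptor is engaged together with a costimulatory signal, and activation in turn induces receptors that restrain the cell. Ctla4 competes with Cd28 for the ligands Cd80 and Cd86, Pdcd1 (PD-1) is engaged by Cd274 (PD-L1), and Lag3, Havcr2 (TIM-3) and Tigit are further inhibitory receptors that build up on T cells under lasting antigen exposure. Icos and Tnfrsf4 (OX40) are costimulatory receptors that appear after activation, and Foxp3 is the transcription factor that defines regulatory T cells. In a transplanted organ these genes are read as signs of alloreactive T cells and of the signals that hold them in check.

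After filtering, 139828 cells were kept. Library totals ran from 14398295 to 109245177 UMIs, cells per library from 330 to 12611 and median UMIs per cell from 1902 to 6722. No more than 50 barcodes were shared between any pair of libraries. Clusters were made without the 9 genes and without 42 further checkpoint and costimulatory genes, and were named from marker lists, so a name ending in "-like" refers to those markers. The T-like class held 15929 cells, and its clusters detected 9 of 11 T cell markers (Cd3d, Cd3e and Cd3g among them). It held 84, 128 and 212 cells in the sham samples, 267, 484 and 6032 in ctrl on days 1, 3 and 7, and 773, 2490 and 5459 in treat. As a share of all cells this was 3.64%, 1.38% and 1.9% in sham, 2.07%, 6.34% and 19% in ctrl, and 3.42%, 15.2% and 21.1% in treat. Levels below are UMIs per 1000000 UMIs of the class or cluster named (CPM), always given in the order sham 1, 2 and 3, ctrl days 1, 3 and 7, and treat days 1, 3 and 7. Since 3′ UMI counts differ between genes in capture, levels are compared between cells or samples for a gene and not between genes.

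Summed over all samples, most UMIs of most of the 9 genes were in T-like cells. T-like cells held 93.8% of all Tnfrsf4 UMIs, 91.8% of Foxp3, 91.4% of Pdcd1, 91.4% of Icos, 84.6% of Ctla4, 83.9% of Lag3 and 75.4% of Tigit. Cd274 and Havcr2 stood apart, with 9.79% and 36.0% of their UMIs in T-like cells. Of the Cd274 UMIs, 33.5% were in neutrophil-like and 18% in macrophage or monocyte-like cells, and of the Havcr2 UMIs 31.7% were in macrophage or monocyte-like and 19.97% in dendritic-like cells. NK-like cells, the other cytotoxic lymphocytes, held 5.46% of Lag3, 4.71% of Ctla4 and 10.0% of Tigit UMIs. Of the 100002 Lag3 UMIs, 51362 and 35790 were from ctrl and treat day 7, and 65, 452 and 739 from sham. The mean Lag3 level in sham was 47.7 CPM in T-like, 21.5 in tuft-like, 21.0 in NK-like, 14.2 in VSMC-like and 13.9 in EC-like cells. It was 10.9 CPM in lymphatic EC-like, 8.29 CPM in fibroblast-like and 8.14 CPM in BEC-like cells. T-like cells were 1.38% to 3.64% of sham cells, so the Lag3 share above does not describe sham.

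By class, the highest Lag3 level was in T-like cells with 1105 CPM (the lowest, median and highest sample at 43.6, 119.6 and 1627 CPM), followed by NK-like cells with 337 CPM (8.17, 120.5 and 477 CPM) and plasmacytoid dendritic-like cells with 76.6 CPM (26.5, 67.7 and 148 CPM). The ranges of these neighbours overlapped. Ctla4 reached 173 CPM in T-like (35.6, 129 and 209 CPM) and 45 CPM in NK-like cells (12, 33.3 and 57.2 CPM). Icos reached 375 CPM in T-like cells (248, 379 and 485 CPM), above every sample of the type 2 innate lymphoid-like class (0, 81.0 and 210.1 CPM) and the NK-like class (14.3, 56.3 and 161 CPM). Tnfrsf4 was at 143 CPM in T-like cells (32.3, 91.0 and 159 CPM) against 11.5 CPM in type 2 innate lymphoid-like cells (0, 7.5 and 35.0 CPM). Pdcd1 was at 40.0 CPM in T-like cells (18, 35.5 and 47.4 CPM) and 5.48 CPM in type 2 innate lymphoid-like cells. Foxp3 was at 12.4 CPM in T-like cells (6.51, 13.4 and 25.7 CPM) and at 1.45 CPM or less in every other class. Tigit was at 19.9 CPM in T-like cells (3.23, 10.3 and 28.1 CPM) and 12.3 CPM in NK-like cells (0, 1.94 and 15.3 CPM), ranges that overlapped.

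The order was different for Cd274 and Havcr2. Cd274, the ligand of PD-1, was highest in neutrophil-like cells with 157 CPM (56.0, 103 and 359 CPM), then in mast or basophil-like cells with 47.4 CPM, lymphatic endothelial-like cells with 30.1 CPM (9.65, 36.2 and 47.6 CPM), vascular endothelial (EC-like) cells with 29.9 CPM (3.12, 26.1 and 60.3 CPM) and NK-like cells with 27.8 CPM, while T-like cells were at 15.7 CPM (8.98, 14.5 and 29.7 CPM). From the lymphatic class downwards these neighbours did not differ beyond their spread. Havcr2 was highest in dendritic-like cells with 65.3 CPM (18.3, 65.4 and 110.0 CPM) and plasmacytoid dendritic-like cells with 47.8 CPM (16.5, 48.5 and 61.4 CPM). T-like cells were at 32.9 CPM (1.16, 14.5 and 42.1 CPM) and macrophage or monocyte-like cells at 13.3 CPM (7.23, 13.5 and 39.3 CPM), and the ranges of these classes overlapped. With an estimate of RNA from outside cells subtracted, mast or basophil-like cells were at 37.7 CPM. That lay between plasmacytoid dendritic-like (48.2 CPM) and T-like cells (33.1 CPM). Differences between classes are a description and were not tested.

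**Figure D1:**
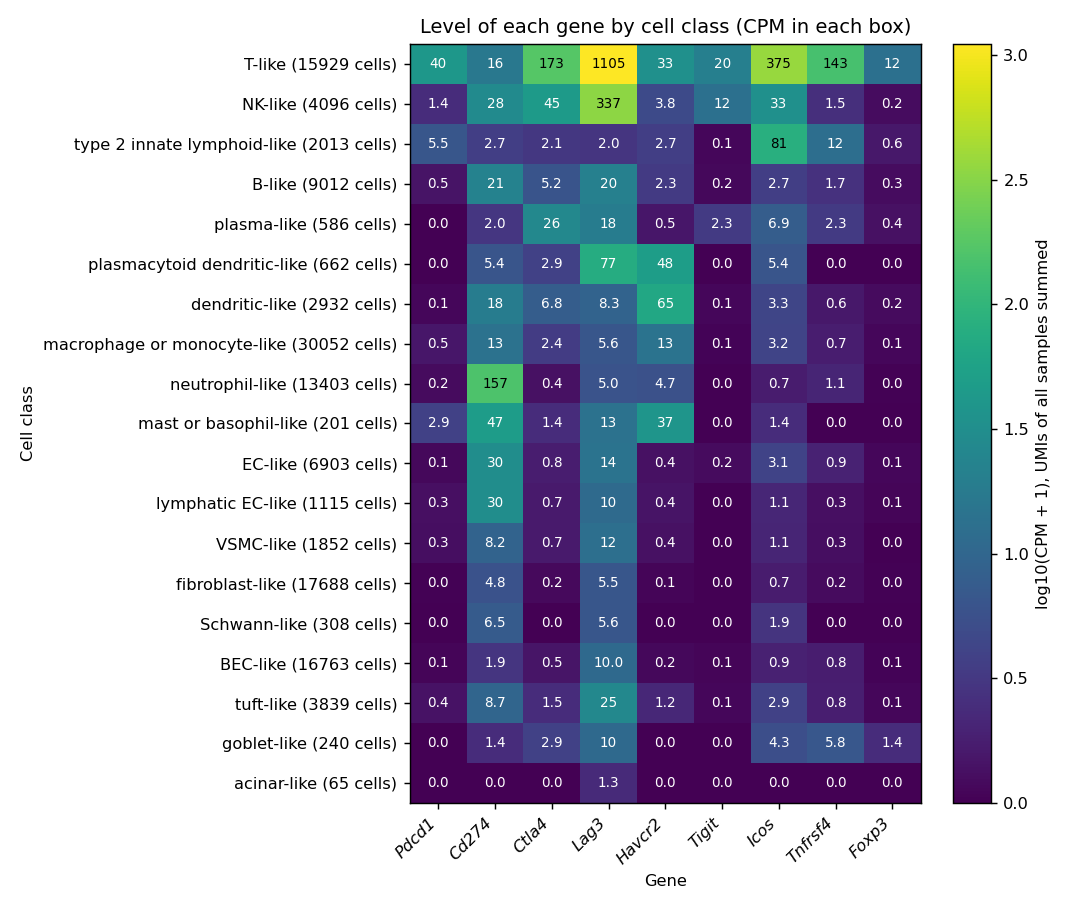
Level of the 9 genes in each cell class, with all samples summed. Each box prints the CPM and is coloured by log10 of CPM + 1, with classes in the lines (number of cells in brackets) and genes in the columns. T-like cells held the highest level of 7 of the genes, whereas Cd274 was highest in neutrophil-like cells (157 CPM) and Havcr2 in dendritic-like cells (65.3 CPM).

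A UMI of Lag3 was found in 60.4% of T-like cells, Icos in 50.4%, Ctla4 in 38.6%, Tnfrsf4 in 20.7%, Pdcd1 in 12.3%, Havcr2 in 10.7%, Tigit in 7.87%, Cd274 in 6.45% and Foxp3 in 3.76%. When every T-like cell was thinned to 1000 UMIs, so that depth was equal, and the 507 shallower cells were left out, the shares for Lag3, Icos, Ctla4 and Tnfrsf4 were 40.3%, 24.5%, 14.8% and 9.97%. At the same 1000 UMIs, BEC-like cells, in which these 4 genes are not known to act, had shares of 1.39%, 0.107%, 0.0628% and 0.0942%, and the thinned shares of the other 5 genes were 1.39% to 3.33% in T-like and 0.00628% to 0.258% in BEC-like cells. The thinned share of T-like cells with Lag3 was 2.53%, 3.97% and 4.31% in sham, 3.94%, 20.3% and 51.7% in ctrl and 3.44%, 25.7% and 46.1% in treat. Both day 7 samples were thus above both day 3 samples, which were above all 5 samples of sham and day 1.

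The gene with the largest change within T-like cells was Lag3, an inhibitory receptor for MHC class II. Its level was 51.8, 47.9 and 43.6 CPM in sham, 49.7, 359 and 1627 CPM in ctrl and 119.6, 511 and 1255 CPM in treat. The groups did not overlap from day 3 on, and day 7 was above day 3 in both arms. The samples were compared with edgeR's quasi-likelihood test on summed UMIs, with Benjamini-Hochberg adjusted p-values over all genes of the class. Each day was the mean of both arms, and all days were compared with the same sham samples. The log2 fold change of Lag3 over sham was 3.28 ± 0.31 (SE; adjusted p = 5.0e-05) on day 3 and 4.99 ± 0.31 (adjusted p = 1.8e-07) on day 7. Between days 1 and 7 it was 4.14 ± 0.33 (adjusted p = 3.5e-06). No single sample, when left out, ended any of these calls, and the day 7 value then ranged from 4.29 to 5.61.

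Ctla4, which takes up the Cd80 and Cd86 that Cd28 needs, was at 35.6, 53.9 and 76.3 CPM in sham, 75.1, 140.0 and 150.5 CPM in ctrl and 129, 183 and 209 CPM in treat. All 4 samples of days 3 and 7 lay above every sham sample, and ctrl day 1 lay within the sham range. The log2 fold change over sham was 1.57 ± 0.28 on day 3 (adjusted p = 0.0025) and 1.64 ± 0.27 on day 7 (adjusted p = 0.0020, edgeR quasi-likelihood). The day 7 call was lost without ctrl day 7 (adjusted p = 0.054), and with ctrl and sham samples only neither day was called (adjusted p = 0.0915 on day 3 and 0.11 on day 7).

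Tnfrsf4, the costimulatory receptor OX40, was at 32.3, 41.9 and 50.8 CPM in sham, 82.0, 91.0 and 159 CPM in ctrl and 136, 155 and 134 CPM in treat. Every transplanted sample was above every sham sample. Tnfrsf4 rose by 1.60 ± 0.32 on the log2 scale on day 3 (adjusted p = 0.0052) and by 1.83 ± 0.32 on day 7 (adjusted p = 0.0029), and its day 1 value of 1.37 ± 0.33 did not pass (adjusted p = 0.098, edgeR quasi-likelihood). Its day 3 call was lost without treat day 3 (adjusted p = 0.080), with ctrl and sham samples only (0.16) and with each library as its own sample (0.072), and its day 7 call without ctrl day 7 (adjusted p = 0.20).

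Havcr2 was at 6.47, 8.98 and 14.5 CPM in sham, 1.16, 15.9 and 37.9 CPM in ctrl and 8.45, 22.5 and 42.1 CPM in treat. Counts behind the low values were small, with 2, 3 and 8 UMIs in sham and 1 UMI in ctrl day 1. Both day 7 samples were above all 7 others. The edgeR log2 fold change was 1.92 ± 0.44 on day 7 against sham (adjusted p = 0.026) and 2.81 ± 0.42 against day 1 (adjusted p = 0.0014). The call against sham was lost without any of the 3 sham samples or without ctrl day 7 (adjusted p up to 0.46), with either arm alone beside sham (up to 0.14) and with libraries fitted as separate samples (0.078). The call against day 1 was kept whichever sample was left out and was lost with treat and sham samples only (adjusted p = 0.104).

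The remaining 5 genes did not pass within T-like cells in any comparison. Tigit, which competes with Cd226 for the same ligands, was at 3.23, 15 and 7.26 CPM in sham, 3.47, 12.5 and 22.6 CPM in ctrl and 10.3, 7.57 and 28.1 CPM in treat, so that the day 7 samples were the highest. Its day 7 log2 fold change over sham was 1.60 ± 0.51 (adjusted p = 0.10) and over day 1 it was 1.63 ± 0.41 (adjusted p = 0.052, edgeR quasi-likelihood). With no filter on low counts the first of these passed, at 1.79 (adjusted p = 0.0097). Pdcd1, which encodes PD-1, was at 45.3, 18 and 43.6 CPM in sham, 34.7, 35.5 and 47.4 CPM in ctrl and 27.9, 25.3 and 44.0 CPM in treat, with day 7 inside or next to the sham range (0.35 ± 0.32, adjusted p = 0.63). Icos was at 391, 248 and 379 CPM in sham, 289, 437 and 297 CPM in ctrl and 412, 485 and 378 CPM in treat, with no separation of the groups (day 7, -0.01 ± 0.22). Foxp3 was at 9.70, 18 and 14.5 CPM in sham, 12.7, 13 and 6.51 CPM in ctrl and 25.7, 17.4 and 13.4 CPM in treat (day 7, -0.58 ± 0.41, adjusted p = 0.50). Cd274 stayed between 8.98 and 29.7 CPM in all 9 samples (day 7, 0.28 ± 0.52, adjusted p = 0.84).

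By count, 4 of the 9 genes were higher in T-like cells on day 7 than in sham, while 1.5% of the 9588 genes tested were called higher. On day 3 it was 3 of 9 (7.07% of all genes higher), and between days 1 and 7 it was 2 of 9 (1.15% higher). On day 1, edgeR called none of the 9 (0.355% of all genes in either direction), and DESeq2 called none. Ctla4, Lag3 and Tnfrsf4 had an unadjusted p under 0.05 in edgeR, a level at which the share of all genes is not given. The median log2 fold change of the 9 genes on day 7 was 1.60, beside 0.025 for all genes tested. On day 3 these medians were 0.79 and 0.0098, and on day 1 they were 0.41 and 0.038.

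**Figure D2:**
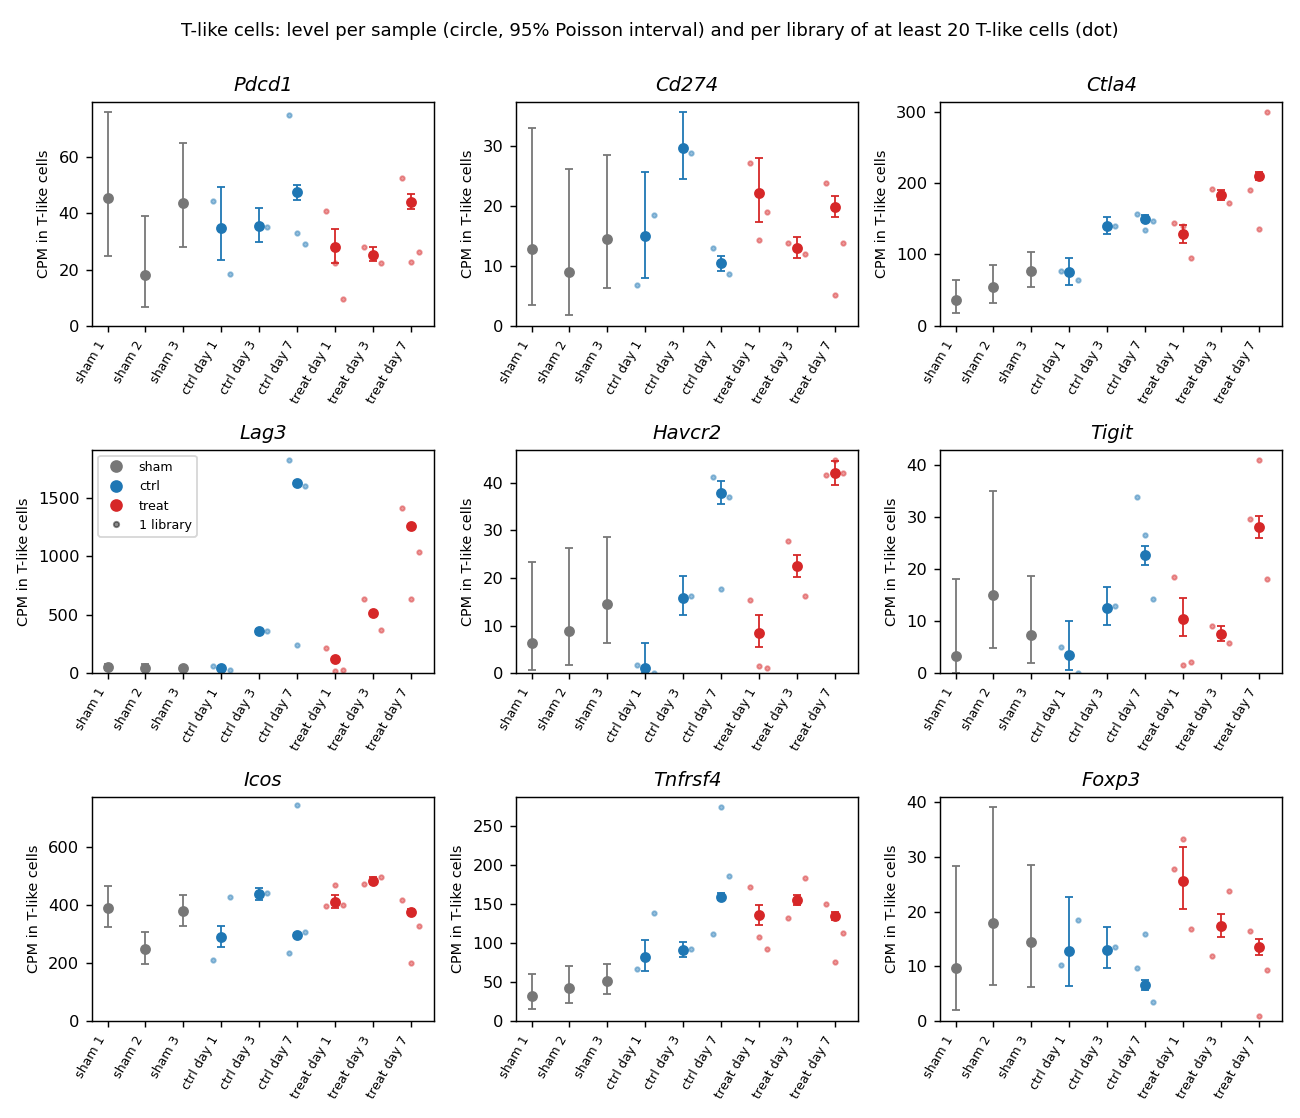
Level of each of the 9 genes in T-like cells, in CPM by sample. Each circle is 1 sample with its exact 95% Poisson interval, which covers counting error only. Each small dot is 1 library of a transplanted sample with at least 20 T-like cells. Lag3 was at 43.6 to 51.8 CPM in sham and at 1255 and 1627 CPM on day 7, while Icos and Pdcd1 showed no separation of day 7 from sham.

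The treat arm, with raised arterial flow, and the ctrl arm were compared within T-like cells and within days over 3 days, with 1 sample per arm and day. None of the 9 genes passed edgeR's quasi-likelihood test or DESeq2, and 0.0209% of the genes tested were called. Foxp3 and Ctla4 had an unadjusted p under 0.05, a level at which the share of all genes is not given. Foxp3 was higher in treat by 0.79 ± 0.25 on the log2 scale, with treat above ctrl on each of the 3 days (unadjusted p = 0.0058, adjusted p = 1 over all genes by edgeR). Ctla4 was higher by 0.50 ± 0.22, also on each of the 3 days.

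The composition of the T-like class also differed between samples. Naive T-like cells made up 23.8%, 40.6% and 22.2% of T-like cells in sham, 53.9%, 39.3% and 25.2% in ctrl on days 1, 3 and 7 and 57.1%, 33.9% and 24.8% in treat. Cycling-like cells, named from genes of dividing cells, made up 3.57%, 3.13% and 3.30% in sham, 2.62%, 21.5% and 9.52% in ctrl and 6.47%, 21.6% and 11.9% in treat, with both day 3 samples the highest. CD8 T-like cells made up 8.33%, 3.91% and 3.77% of T-like cells in sham (7, 5 and 8 cells), 2.25%, 4.13% and 15.6% in ctrl and 2.72%, 0.683% and 26.0% in treat. Other clusters were also rich in Cd8a. It was detected in 94.3% of a cycling-like cluster, 80.5% of a naive T-like one and 91.6% and 87.6% of unnamed ones. In treat day 3 these held 2.81%, 9.80%, 0.361% and 6.51% of T-like cells. Unnamed clusters made up 15.5%, 14.1% and 11.8% of T-like cells in sham. They made up 8.99%, 17.6% and 28.5% in ctrl and 10.9%, 26.9% and 18.2% in treat. Cells of the type 17 or gamma-delta T-like cluster made up 25%, 25% and 41.0% in sham and 1.76% and 0.586% on day 7. These shares differed between the libraries of a sample. The cycling-like share was 35.25% in library 2 of treat day 7, and 2.85% in treat day 1 without library 1. The CD8 share was 26.1%, 0.395% and 7.11% in libraries 1, 2 and 3 of ctrl day 7 and 30.3%, 13.2% and 15.8% in those of treat day 7, and without library 1 it was 6.59% in ctrl day 7 and 15.1% in treat day 7. Of the 106 type 17 or gamma-delta T-like cells of ctrl day 7, 67 were in library 2, where they were 26.5% of T-like cells, and without that library the share was 0.675%. The summed level of the CD8 marker list in T-like cells was 5138 and 7732 CPM on day 7 and at most 1676 CPM in the other samples. The part of these shares in the changes of the T-like class was not tested, and the levels within subsets and clusters that follow bear on it. Acinar cell genes, a sign of pancreatic RNA, summed to 793 and 1089 CPM in the T-like cells of sham 2 and 3 and to at most 48.5 CPM elsewhere. In sham 2 and 3 the biliary epithelial marker list summed to 242 and 263 CPM and the fibroblast list to 443 and 381 CPM. In ctrl day 7 these 2 lists were at 65.0 and 42.6 CPM.

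T-like cells, NK-like cells and innate lymphoid cells were clustered again, together with 2 clusters of 2129 and 59 cells that held markers of T and NK cells but had stayed unnamed, which gave 35 clusters. Among the named clusters Lag3 was highest in the CD8 T-like ones. Levels by cluster are summed over samples, and clusters differ in the days they hold. The larger CD8 T-like cluster (2201 cells, of which 829 were from ctrl day 7 and 1315 from treat day 7, led by the chemokines Ccl5 and Ccl4) had 3660 CPM of Lag3, 293 CPM of Ctla4, 113 CPM of Havcr2, 58.5 CPM of Tigit and 73.5 CPM of Pdcd1. In contrast, its Tnfrsf4 level was 15.7 CPM and its Foxp3 level 1.95 CPM. A smaller CD8 T-like cluster (322 cells, led by Ccl3) had the highest Pdcd1 level of all lymphoid clusters with a name, 142 CPM, with Lag3 at 4722 CPM. Its cells were shallow, with a median of 1138 UMIs. Within the day 7 samples alone these 2 clusters were also the highest named ones of at least 20 cells for Lag3, the larger at 4297 CPM in ctrl and 3433 CPM in treat and the smaller at 6212 and 4694 CPM, above a cycling-like cluster at 1228 and 920 CPM.

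The CD4 T-like cluster led by Ubd and Lgmn (1784 cells), which had Foxp3 and Tnfrsf4 among its leading genes and Cd4 detected in 9.75% of its cells, had 738 CPM of Icos, 461 CPM of Tnfrsf4, 240.3 CPM of Ctla4 and 75.4 CPM of Foxp3, with Lag3 at 552 CPM and Havcr2 at 7.00 CPM. Only 2 of 8 markers of regulatory T cells were detected there, so it was not named for them. The CD4 T-like cluster led by Areg and Tnfsf8 (1030 cells) had 386 CPM of Tnfrsf4 and 791 CPM of Lag3. An unnamed cluster led by Izumo1r and Cryba4 (922 cells, of which 524 were from ctrl day 7 and 377 from treat day 7) had both a Lag3 level of 4857 CPM and a Tnfrsf4 level of 519.7 CPM, with Cd4 detected in 16.7% and Cd8a in 18% of its cells. The type 17 or gamma-delta T-like cluster (528 cells) had an Icos level of 867 CPM with Lag3 at 45.4 CPM. Of its cells, 24, 50 and 102 were from sham and 47 and 98 from day 1, and on day 7 its Lag3 level was 70.3 CPM in ctrl and 307 CPM in treat. Among the named T-like clusters of over 1000 cells, the 3 naive ones had the lowest Lag3 levels, at 119.6 to 322 CPM.

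**Figure D3:**
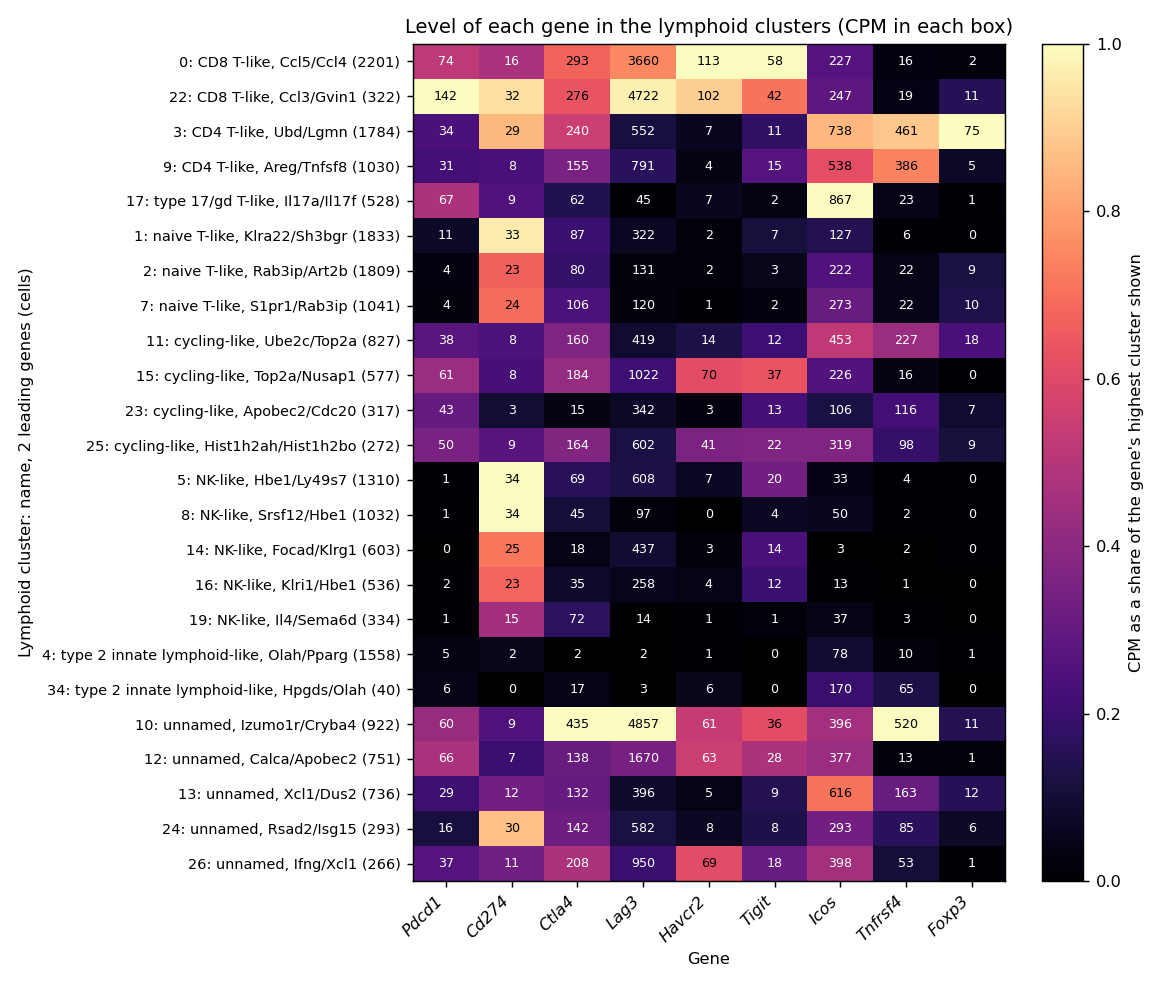
Levels of the 9 genes in 24 lymphoid clusters, the 19 with a name and the 5 unnamed ones in which at least 75% of cells had a Cd3e UMI, labelled by name, leading genes and number of cells. Each box prints the CPM and is coloured by its share of the gene's highest cluster shown, so that the CD8 T-like clusters stand out for Havcr2 (113 CPM) and Tigit (58.5 CPM), the CD4 T-like cluster led by Ubd for Foxp3 (75.4 CPM) and the type 17 or gamma-delta T-like cluster for Icos (867 CPM).

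Lag3 also differed by day within subsets of T-like cells. In the CD4 T-like cluster led by Ubd it was 24.3 CPM in sham 3, the only sham sample with at least 20 such cells, and 33.8, 172 and 976 CPM in ctrl and 65.4, 361 and 631 CPM in treat. This cluster was described and not tested. Naive T-like cells, named from markers of T cells that have not yet met antigen, were summed over 3 clusters and had 100.4, 30.4 and 80.1 CPM in sham, 50.4, 139 and 304 CPM in ctrl and 30.1, 189 and 218 CPM in treat. The log2 fold change in naive T-like cells was 2.19 ± 0.40 on day 7 over sham (adjusted p = 0.0020) and 2.86 ± 0.36 over day 1 (adjusted p = 6.8e-06, edgeR quasi-likelihood). Lag3 was 1 of 6 tested members called in each, and 0.271% and 1.64% of all genes were called higher. The call over sham was lost without sham 2, sham 3 or ctrl day 7 (adjusted p up to 0.26) and with each library as its own sample (adjusted p = 0.14), and the call over day 1 was kept whichever sample was left out. The 3 naive clusters were filled unequally over the days. The one led by Klra22 and Sh3bgr, with Cd8a in 80.5% of its cells, had none of the 6 naive markers among its leading genes and the highest Lag3 level of the 3, and it held 6 of 20, 18 of 52 and 22 of 47 naive T-like cells in sham. On day 1 it held 11 of 144 in ctrl and 30 of 441 in treat, and on day 7 815 of 1518 and 605 of 1352. The other 2, led by genes such as Lef1 and S1pr1, were fitted alone as an alternative chosen after seeing the data, with 14 such cells in sham 1. Lag3 was then at 0, 25.5 and 17.6 CPM in sham (0, 2 and 1 UMIs), 33.4, 124 and 175 CPM in ctrl and 26.9, 158 and 133 CPM in treat, with days 3 and 7 above all samples of sham and day 1. Its log2 fold change on day 7 was 3.50 ± 0.63 over sham (adjusted p = 0.00023) and 2.47 ± 0.34 over day 1 (adjusted p = 5.5e-07, edgeR). Tnfrsf4 in the CD4 T-like cluster led by Ubd was 243 CPM in sham 3, 392, 282 and 585 CPM in ctrl and 485, 471 and 437 CPM in treat.

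**Figure D4:**
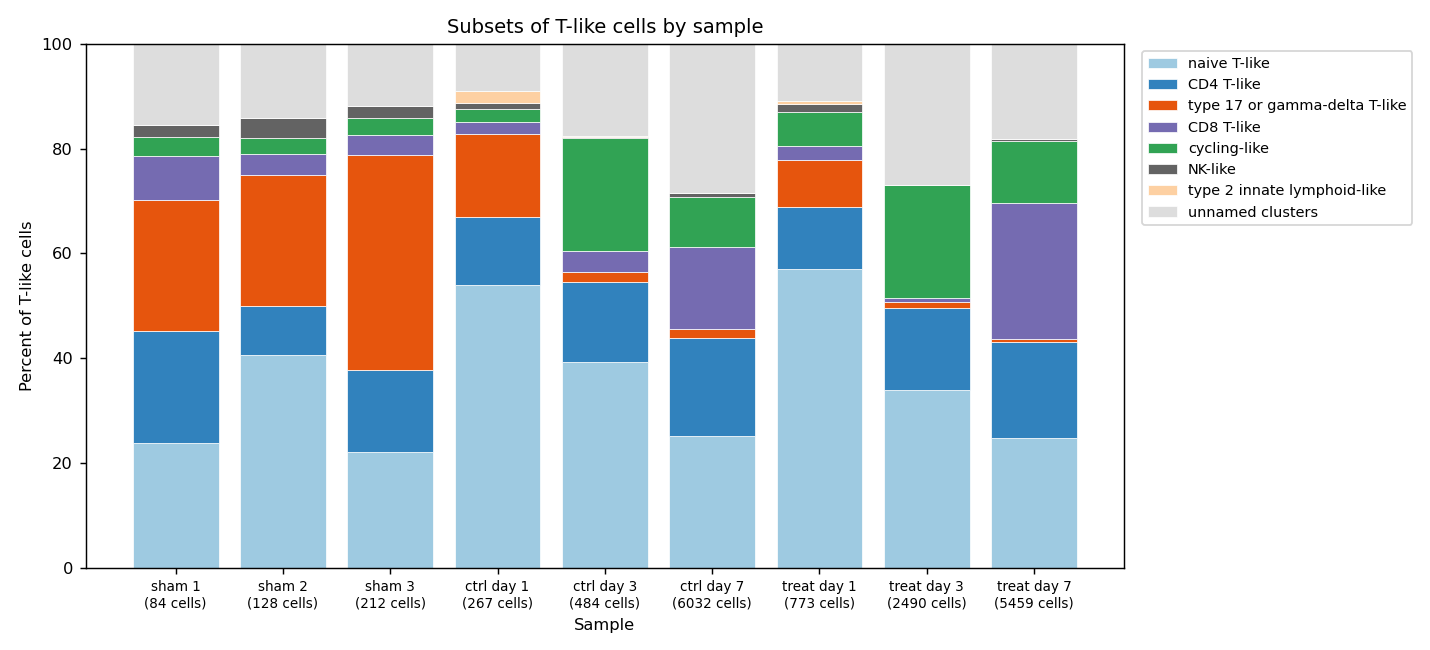
Share of T-like cells in each subset, in percent, stacked by sample with the number of T-like cells under each bar. Type 17 or gamma-delta T-like cells took 25% to 41% of the sham bars, and CD8 T-like cells took 15.6% and 26.0% of the day 7 bars, or 6.59% and 15.1% without library 1 of each. Unnamed clusters took 28.5% and 18.2% of the day 7 bars. Some clusters with Cd8a in most cells were unnamed or named otherwise and are not in the CD8 T-like share.

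Cells with a Foxp3 UMI were set beside the other T-like cells of the same sample, in the 5 samples with at least 20 such cells (33 and 117 cells in ctrl days 3 and 7, and 50, 170 and 209 cells in treat days 1, 3 and 7). Tnfrsf4 was 2.06, 4.32, 4.54, 3.66 and 6.38 times as high in the Foxp3 cells. Icos was 2.04, 2.21, 1.87, 1.66 and 2.07 times and Ctla4 1.74, 1.83, 2.63, 1.70 and 1.17 times as high. Havcr2 was lower in the Foxp3 cells of all 5 samples, at 0.50, 0.32, 0.37, 0.54 and 0.19 of the level in the others. In the samples with 33 and 50 Foxp3 cells these Havcr2 ratios rest on few UMIs. Lag3 and Pdcd1 were on either side of the other cells, at 0.65 to 2.02 and 0.33 to 1.93 times their level. Cells of a sample are not replicates, and these ratios were not tested.

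The receptors were also read cell by cell on day 7, after thinning T-like cells to 1000 UMIs. Lag3 and Havcr2 were found together in 187 cells of ctrl and 186 of treat, 1.69 and 1.77 times as many as the product of their shares gives. The same ratio was 1.61 in both arms for Ctla4 with Tigit, and 1.35 and 1.36 for Ctla4 with Lag3. Icos went with Foxp3 at 1.79 and 2.17 times the product. Icos with Havcr2 was below it, at 0.788 and 0.818, and so was Cd274 with Lag3, at 0.764 and 0.642. These are descriptions of cells that share a library, with no test.

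Summed over all cells of a sample, the genes rose more widely. A sum over all cells cannot tell fewer cells of a type from less RNA per cell, and the share of T-like cells rose over the same days, as given above. On day 7, 8 of 9 genes were higher than in sham (5.86% of the 16412 genes tested were called higher), with log2 fold changes of 5.41 ± 0.55 for Lag3 (adjusted p = 0.0072), 5.08 ± 0.33 for Ctla4 (adjusted p = 0.0052) and 6.25 ± 0.54 for Tigit (adjusted p = 0.0055, edgeR quasi-likelihood). The Lag3 level over all cells was 7.08, 8.30 and 11.4 CPM in sham, 4.03, 30.5 and 347 CPM in ctrl and 5.09, 97.5 and 265 CPM in treat. Foxp3, which did not pass within T-like cells, was at 0.327, 0.257 and 0.155 CPM in sham, 0.134, 1.03 and 1.26 CPM in ctrl and 0.475, 3.24 and 2.69 CPM in treat, and rose by 3.29 ± 0.40 on day 7 (adjusted p = 0.011). Cd274 was not called by edgeR on day 7 (1.55 ± 0.43, adjusted p = 0.074), whereas DESeq2 called it (adjusted p = 0.0088). Without ctrl day 7, edgeR's adjusted p was 0.080 for Lag3, Tigit and Tnfrsf4, and only the Ctla4 call of day 7 held whichever sample was left out. That call was lost with ctrl and sham samples only (adjusted p = 0.075) and with treat and sham samples only (adjusted p = 0.0965).

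On day 3, edgeR called 7 of 9 higher over all cells (4.52% of all genes), all but Havcr2 and Pdcd1, which DESeq2 called (adjusted p = 0.030 and 0.0040). In edgeR Tnfrsf4 was at 4.38 and Ctla4 at 4.14 ± 0.32 (adjusted p = 0.0076). Between days 1 and 7, edgeR called 7 of 9 higher (2.18% of all genes), with Lag3 at 6.07, and DESeq2 also called Pdcd1. The Ctla4 call of day 3 was lost without treat day 3 (adjusted p = 0.062), and the other day 3 calls and all calls between days 1 and 7 were each lost in 4 or more of the 9 fits that left out a sample. On day 1, edgeR and DESeq2 called none of the 9 over all cells (3.94% of all genes in either direction by edgeR), with Ctla4 at an unadjusted p under 0.05. Between the arms, edgeR called none of them and 0% of all genes, with Ctla4 and Foxp3 at an unadjusted p under 0.05. DESeq2 called Foxp3 as higher in treat (1.43 ± 0.37, adjusted p = 0.039). For these sums over all cells, the shares of all genes at an unadjusted p or by DESeq2 are not given.

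In NK-like cells Lag3 was higher and Icos lower than in sham on days 3 and 7, and the clusters that made up the class differed between sham and day 7. Lag3 was at 8.17, 30.8 and 24 CPM in sham, 120.5, 129 and 477 CPM in ctrl and 53.8, 127 and 309 CPM in treat, with every transplanted sample above every sham sample. It rose by 2.54 ± 0.42 on day 3 (adjusted p = 0.0032) and 4.11 ± 0.39 on day 7 (adjusted p = 3.7e-05). Icos was at 98, 161 and 110.3 CPM in sham, 56.3, 55.1 and 27.0 CPM in ctrl and 72.4, 35.5 and 14.3 CPM in treat, so that every transplanted sample was below every sham sample. It fell by 1.45 ± 0.36 on day 3 (edgeR adjusted p = 0.020) and by 2.54 ± 0.32 on day 7 (edgeR adjusted p = 0.00023). The day 7 calls of Lag3 and Icos held whichever sample was left out. The day 3 call was lost without treat day 3 for Lag3 (adjusted p = 0.063) and without sham 2, sham 3, ctrl day 3 or treat day 3 for Icos (adjusted p up to 0.17). Of the 40, 137 and 199 NK-like cells of sham, 8, 66 and 99 lay in the NK-like lymphoid cluster led by Srsf12 and 22, 39 and 62 in the one led by Il4, while of the 1858 cells of ctrl day 7 and 1110 of treat day 7, 1012 and 234 lay in the one led by Hbe1 and Ly49s7, 144 and 381 in the one led by Focad, and 250 and 200 in the one led by Klri1. The level of Lag3 over all samples was 96.8 and 14.2 CPM in the first 2 of these clusters and 608, 437 and 258 CPM in the other 3. In the NK-like cells of the Srsf12 cluster alone, Lag3 was at 29.9 and 20.3 CPM in sham 2 and 3, 60, 38.6 and 152 CPM in ctrl and 27.7, 104.8 and 139 CPM in treat, and sham 1 had 8 such cells. This single cluster was not tested.

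Many Icos UMIs of the sham NK-like class were in a few cells outside the NK-like lymphoid clusters. In sham 1 and 2, 10 of 12 and 35 of 47 Icos UMIs, and in sham 3 19 of 46, came from 3, 17 and 11 cells that lay in the type 17 or gamma-delta T-like lymphoid cluster. As an alternative chosen after seeing the data, the fit was repeated over the cells of the class that lay in NK-like lymphoid clusters. Icos was then at 19.9, 47.4 and 74.6 CPM in sham, 42.9, 27.1 and 24.7 CPM in ctrl and 39.5, 33.1 and 13.6 CPM in treat, so that the groups overlapped. It was still lower on day 7 (-1.39 ± 0.39, adjusted p = 0.029, edgeR), and neither the day 3 value (-0.70 ± 0.45, adjusted p = 0.31) nor the difference between days 1 and 7 (-0.99 ± 0.38, adjusted p = 0.26) was called. Lag3 kept its calls in these cells, at 2.38 ± 0.43 on day 3 (adjusted p = 0.0014) and 3.98 ± 0.39 on day 7 (adjusted p = 1.5e-06, edgeR). Cd3e was detected in 1.33% to 6.03% of the cells of the 5 NK-like clusters, and free RNA was estimated at 0% to 8.27% of the UMIs of the class over the libraries.

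Ctla4 in NK-like cells was at 16.3, 20.5 and 12 CPM in sham, 46.6, 41.3 and 57.2 CPM in ctrl and 51.7, 31.5 and 33.3 CPM in treat, and was higher on day 7 (1.58 ± 0.40, adjusted p = 0.025, edgeR). DESeq2 did not call it (adjusted p = 0.052), nor did edgeR without sham 2, sham 3 or ctrl day 7 (adjusted p up to 0.29). Cd274 rested on 4 UMIs in the 3 sham samples (0, 6.85 and 4.79 CPM) and was at 14.4 to 34.4 CPM in all 6 transplanted samples, with log2 fold changes of 2.28 ± 0.69 on day 3 (adjusted p = 0.048) and 2.74 ± 0.58 on day 7 (adjusted p = 0.0096, edgeR). The day 7 call was lost without sham 3 or treat day 7 (adjusted p up to 0.082), and the day 3 call in 5 of 9 such fits and over the cells in NK-like lymphoid clusters (adjusted p = 0.054). In all, edgeR called 3 of 4 tested members on day 3 and 4 of 4 on day 7, beside 11.1% and 8.13% of all genes in either direction. DESeq2 did not call Cd274 on day 3 or Ctla4 on day 7. On day 1 edgeR and DESeq2 called none of the 4 against sham (0.272% of all genes by edgeR). Cd274, Ctla4, Icos and Lag3 had an unadjusted p under 0.05 in edgeR, a level at which the share of all genes is not given. Between days 1 and 7 it was 2 of 4 (1.87% of all genes), with Lag3 at 2.34 ± 0.34 (adjusted p = 0.0022, lost without treat day 1 at 0.12) and Icos at -1.62 ± 0.33 (adjusted p = 0.026, lost without treat day 1 or treat day 7, up to 0.82).

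Cd274, whose product on vessel walls and myeloid cells engages PD-1 on T cells, was described in the cells around the T cells. In EC-like cells it was at 36.7, 26.1 and 28.4 CPM in sham, 3.12, 18 and 25.5 CPM in ctrl and 6.21, 60.3 and 47.1 CPM in treat. Both day 1 samples were the lowest of all, the ctrl samples of days 3 and 7 were also below every sham sample, and the treat samples of those days were above every sham sample. Between the arms it was higher in treat by 1.28 ± 0.27 on the log2 scale (unadjusted p = 0.00089, adjusted p = 0.25 by edgeR and 0.066 by DESeq2). Neither tool called any of the 3 members tested between the arms in EC-like cells, and edgeR called 0% of all genes (921 of 10176 at an unadjusted p under 0.05, and 29 called by DESeq2). On day 1 Cd274 fell against sham by 2.74 ± 0.34 (edgeR adjusted p = 0.013) and was higher on day 7 than on day 1 by 3.00 ± 0.35 (edgeR adjusted p = 0.0035), as 1 of 3 members tested (2.87% of all genes lower and 2.29% higher). The day 1 call was lost without sham 3, ctrl day 1 or treat day 1 (adjusted p up to 0.14), and the call between days 1 and 7 without treat day 1 (adjusted p = 0.11).

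Neutrophil-like cells, with only 72, 11 and 37 cells in sham, were compared among the 6 transplanted samples alone. Cd274 was at 122, 341 and 101 CPM in ctrl and 56.0, 359 and 106 CPM in treat, highest on day 3 in both arms. The difference between days 3 and 1 was 1.86 ± 0.37 (adjusted p = 0.038, edgeR), for 1 of 3 members tested and 1.82% of all genes called higher. It was 1.17 (adjusted p = 0.46) with no limit on hemoglobin UMIs, did not pass with doublets kept (adjusted p = 0.070) and was lost without ctrl day 7, treat day 1 or treat day 7 (adjusted p up to 0.20).

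Dendritic-like cells were compared over 8 samples, since sham 1 had 2 such cells. They had 6 of 10 dendritic markers, and their subsets were not separated. Cd274 was at 1.58 and 0.679 CPM in sham 2 and 3, 38.6, 60.4 and 8.09 CPM in ctrl and 35.1, 7.01 and 6.11 CPM in treat. Every transplanted sample was above both sham samples, and day 1 was above day 7 in both arms. The pooled CPM on day 1 was 33.3 times that of sham (counting interval 11.3 to 162), since sham had 3 UMIs, and on day 3 it was 25.1 times (8.16 to 125). In edgeR the log2 fold changes were 5.08 ± 0.74 on day 1 (adjusted p = 0.0014), 4.38 ± 0.81 on day 3 (adjusted p = 0.031) and -2.45 ± 0.46 from day 1 to day 7 (adjusted p = 0.0060). These calls were lost without sham 3 for day 1 (adjusted p = 0.059), without sham 2, sham 3 or ctrl day 3 for day 3 (up to 0.37) and without ctrl day 7 for days 1 to 7 (adjusted p = 0.19).

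Havcr2, which dendritic cells also use to regulate their response to nucleic acids, went the other way on day 1. In dendritic-like cells it was at 81.9 and 110.0 CPM in sham 2 and 3, 18.3, 64.2 and 66.6 CPM in ctrl and 57.5, 48.3 and 82.9 CPM in treat, and fell by 1.43 ± 0.32 on day 1 (edgeR adjusted p = 0.013, lost without sham 2, sham 3 or ctrl day 1, up to 0.19). Of the 4 members tested in dendritic-like cells, 2 were called on day 1 (16.5% of all genes in either direction), 1 on day 3 (1.97%) and 3 between days 1 and 7 (10.8%). The last of these included Lag3 at 3.46 ± 0.75 (adjusted p = 0.013, lost without ctrl day 7 at 0.41) and Ctla4 at 2.29 ± 0.61 (adjusted p = 0.034, lost in 4 of the fits that left out a sample). With estimated free RNA subtracted, the class had 6.94 CPM of Lag3 and 6.72 CPM of Ctla4 over all samples. In barcodes of at most 100 UMIs, Lag3 was at 4.80 and 6.25 CPM on day 1 and 270 and 253 CPM on day 7. Apart from that subtraction, the part of free RNA in these 2 calls was not tested.

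In macrophage or monocyte-like cells Havcr2 was at 26.6, 22.2 and 39.3 CPM in sham and at 7.23 to 15.5 CPM in all 6 transplanted samples. The groups did not overlap. It fell by 1.15 ± 0.34 on day 1 (edgeR adjusted p = 0.049), a call lost in 8 of the 9 fits that left out a sample. The class joined clusters with C1qc, Fcnb or Spn among their leading genes, which were not fitted apart. A change in their shares cannot be told apart here from a change per cell. Cd274 in the same cells was at 12.5, 5.81 and 9.05 CPM in sham, 9.93, 18.7 and 12.1 CPM in ctrl and 9.83, 14.1 and 16.1 CPM in treat, and was higher on day 3 by 1.25 ± 0.30 (edgeR adjusted p = 0.043, lost in 7 such fits and with free RNA subtracted, at 0.051). In these 2 comparisons 2 and 1 of the 7 members tested were called, the second on day 1 being Lag3, beside 7.54% of all genes lower on day 1 and 3.83% higher on day 3. DESeq2 also called Havcr2 as lower on day 3 and Cd274 as higher on day 7.

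**Figure D5:**
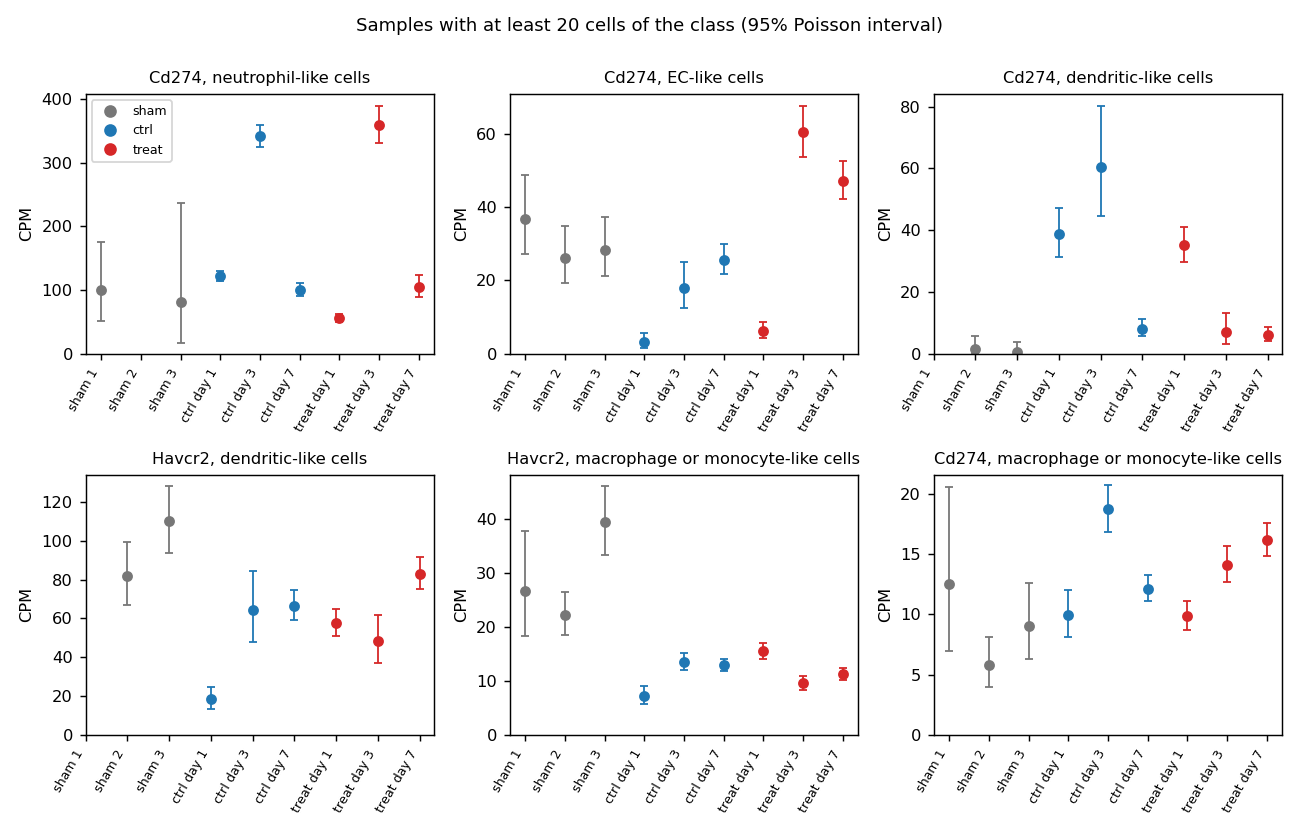
Cd274 and Havcr2 in CPM by sample in cells other than T cells, each point being 1 sample with at least 20 cells of the class and its exact 95% Poisson interval, coloured by group. In EC-like cells Cd274 was lowest on day 1 (3.12 and 6.21 CPM), and in macrophage or monocyte-like cells Havcr2 was at 22.2 to 39.3 CPM in sham and 15.5 CPM or less after LT.

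Low levels of T cell genes were also called in cells that are not lymphocytes. Beyond an alternative with estimated free RNA subtracted, the part of free RNA in these calls was not tested. Among barcodes of at most 100 UMIs, which hold RNA outside cells, Lag3 was at 252.8 CPM or more on day 7 and at most 16.9 CPM in sham, although library 2 of ctrl day 7 alone was at 12.8 CPM and library 2 of treat day 7 at 53.8 CPM. In macrophage or monocyte-like cells Lag3 was at 0.833, 1.94 and 2.84 CPM in sham and 13.1 and 9.34 CPM on day 7 (2.77 ± 0.53 over sham, adjusted p = 0.034, and 5.24 ± 0.65 over day 1, adjusted p = 0.0074, edgeR), as 1 of 7 members in each (1.71% and 1.2% of all genes higher). With the estimated free RNA subtracted the first was not called (adjusted p = 0.13), nor was it without sham 2, sham 3 or ctrl day 7 (adjusted p up to 0.51). The second was lost without ctrl day 7 or treat day 1 (adjusted p up to 0.10). On day 1 Lag3 was at 0.0964 and 0.478 CPM in these cells, 1 and 13 UMIs, and edgeR called it lower than in sham (-2.47 ± 0.72, adjusted p = 0.046, lost without sham 2, sham 3, ctrl day 1 or treat day 1, up to 0.22, and with free RNA subtracted, at 0.0595). In neutrophil-like cells Lag3 went from 0.641 and 1.78 CPM on day 1 to 16 and 24.7 CPM on day 7 (4.14 ± 0.58, adjusted p = 0.0088, edgeR, lost without ctrl day 7 at 0.22), 1 of 3 members (1.53% of all genes higher).

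Biliary epithelial (BEC-like) cells had Ctla4, Icos and Tnfrsf4 below 3.2 CPM in every sample. On day 7, Ctla4 and Tnfrsf4 were called higher than in sham there (2 of 5 members, 6.63% of all genes), Ctla4 on 2 sham UMIs (18.2 times, counting interval 4.84 to 153). Between days 1 and 7, 4 of 5 members were called (11.3% of all genes), and on day 3 Cd274 was (2.96 ± 0.75, adjusted p = 0.048, edgeR, 6.22% of all genes, adjusted p = 0.053 with free RNA subtracted). Each BEC-like call was lost in at least 2 fits that left out a sample. Fibroblast-like cells had Lag3 lower on day 1 than in sham (-2.05 ± 0.48, adjusted p = 0.014, edgeR, 1 of 3 members, 15.6% of all genes lower), lost without sham 3, ctrl day 1 or treat day 1 (adjusted p up to 0.0997). All 3 members tested there were higher on day 7 than on day 1 (14.6% of all genes), of which Lag3 and Icos were not called with free RNA subtracted (adjusted p = 0.079 and 0.067), and each was lost in at least 2 fits that left out a sample. In vascular smooth muscle (VSMC-like) cells Cd274 was higher on day 7 than on day 1 (3.66 ± 0.74, adjusted p = 0.012, edgeR, 1 of 2 members, 4.54% of all genes), from 4 UMIs on day 1, a call lost in 4 such fits.

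Of the 42 other checkpoint and costimulatory genes, 32 were tested in T-like cells. On day 7, 3 were higher than in sham: Tnfrsf9, the costimulatory receptor 4-1BB (2.66 ± 0.41, adjusted p = 0.0011), Tox, a transcription factor of exhausted T cells (1.92 ± 0.28, adjusted p = 0.00071), and Batf, an AP-1 factor of effector T cells (1.20 ± 0.26, adjusted p = 0.017, all by edgeR). Another 3 were lower: Cd40lg, the helper signal to B cells and dendritic cells (-1.87 ± 0.35, adjusted p = 0.0060), Cd226, the activating counterpart of Tigit (-1.39 ± 0.29, adjusted p = 0.014), and Nr4a1, an early gene of antigen receptor signals (-1.21 ± 0.31, adjusted p = 0.041, all by edgeR). Among all genes 1.5% were higher and 1.7% lower. On day 3, 3 were higher and 3 lower (7.07% and 5.14% of all genes), with Pdcd1lg2, the second PD-1 ligand, at 1.81 ± 0.31 and Cd96, a receptor of the Tigit group, at -2.88 ± 0.32 (edgeR adjusted p = 0.00015).

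In NK-like cells 5 of the 20 other genes tested passed on day 7 (8.13% of all genes in either direction), with Cd27, a costimulatory receptor, at 2.78 (edgeR adjusted p = 0.00023) and Cd226 at -1.74. In dendritic-like cells 8 of 26 passed on day 1 (16.5% of all genes in either direction). Cd70, the ligand of Cd27, had 0 UMIs in sham 2 and 3 and 282 on day 1, at least 36.7-fold higher against a floor of 3 counts over the group. Pdcd1lg2 was 48.8 times as high as in sham (counting interval 8.59 to 1941). In macrophage or monocyte-like cells 3 of 36 were higher on day 1 (9.49% of all genes), with Pdcd1lg2 at 2.42, and 7 were lower (7.54% of all genes), with Cd96 at -4.10.

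Over 115 sums of a class and a sample with at least 50 cells, the gene whose log2 level was most like that of each member was sought among 15417 genes. The points share libraries and depth, and the correlations are descriptions. For Lag3 these were Nkg7, Gzmk and Gzmm (Pearson r of 0.744, 0.743 and 0.740), for Pdcd1 Tnfrsf4, Cd28 and Cd40lg (0.882, 0.861 and 0.853) and for Havcr2 Bcl2a1, Cd4 and Dapp1 (0.787, 0.769 and 0.767). Foxp3 was most like AABR07060352.2, Cd40lg and Cd5 (0.904, 0.90 and 0.893). Ctla4 was nearest to AABR07017902.1, Cd27 and Faslg (0.864, 0.863 and 0.858), Tigit to Cd27, Trat1 and Klra22 (0.868, 0.859 and 0.850), Icos to AABR07027872.1, Skap1 and Cd28 (0.896, 0.888 and 0.887), and Tnfrsf4 to Pdcd1, Cd28 and Cd40lg (0.882, 0.855 and 0.849). Cd274 was nearest to the interferon-induced genes Ifit3 and Gbp2 and to Apobr (0.722, 0.685 and 0.665), and its correlation with the other 8 members was between -0.018 and 0.189.

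Library 2 of ctrl day 7 stood apart from the other libraries of its sample. T-like cells made up 3.71% of its cells against 22.6% and 23.7%, and their Lag3 level was 240 CPM against 1820 and 1595 CPM. Its Icos level was 747 CPM against 235 and 307 CPM. Without this library the 4 day 7 calls in T-like cells held, with log2 fold changes of 5.02 for Lag3, 1.64 for Ctla4, 1.80 for Tnfrsf4 (adjusted p = 0.0029) and 1.94 for Havcr2 (adjusted p = 0.025, edgeR). Library 2 of treat day 7 had 5.16% T-like cells against 34.4% and 17.1%, with Lag3 at 632 CPM against 1409 and 1039 CPM. The limit of 3% hemoglobin UMIs took out 2472 of 2907 and 3961 of 4298 cells of libraries 2 and 3 of ctrl day 3. These libraries kept 406 and 330 cells. Without library 1, 25 of the 484 T-like cells of ctrl day 3 were left, so its T-like levels and shares rest mostly on library 1.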

How the data were processed

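Single cells of rat bile duct were profiled with a 10x Genomics 3′ kit. The deposited matrices hold raw UMI counts per gene and barcode, which the authors made with Cell Ranger (5.0.1 in the submitters' processing notes, beside Seurat 3.2.0). The genome build is not given in the sources used here, so no coordinates are printed, and no sequence of the genes was held. All barcodes were deposited, 50413754 in 20 libraries. Cells were kept with over 400 and under 6000 genes, under 25% mitochondrial and under 3% hemoglobin UMIs. These are the limits that the study states for its human data. As doublets, 10456 cells with a simulated-doublet score over percentile 92.5 of their library were taken out. Clustering in scanpy 1.11.5 used 2000 variable genes, 30 components, 20 neighbours and Leiden resolution 0.9, giving 41 clusters, of which 8 stayed unnamed. Lymphoid clusters used resolution 2. The 31 acinar genes left out of the clustering were chosen after a first clustering was seen. A cluster was named from at least 3 markers of 1 of 29 lists. A cluster of 2013 cells, T-like by this rule, was moved to the type 2 innate lymphoid-like class, in whose lymphoid clusters most of its cells lay.

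UMIs were summed per sample and class and tested with edgeR 4.0.16 (TMM, filterByExpr, quasi-likelihood test) over all genes, with terms for time and flow, and called at an adjusted p under 0.05. DESeq2 1.42.0 was an alternative. Members named at an unadjusted p or by DESeq2 are given without the share of all genes, except in EC-like cells. Classes with at least 20 cells in every sample were fitted. In type 2 innate lymphoid-like cells only Icos was tested. Its log2 fold change over sham was 2.16 on day 7, which DESeq2 called and edgeR did not. In tuft-like cells 2 members were tested, and neither tool called them in any comparison. An added fit of naive clusters had 14 cells in sham 1, and the neutrophil-like and dendritic-like fits over fewer samples were chosen after seeing the data. The scripts were tested on simulated data for day 7 against sham. Of genes given a log2 change of 2 and 1, 61% and 18% were called in the T-like fit. Over all cells these were 10% and 0%, so changes of this size can go uncalled. The members and gene lists were chosen with earlier results of these data known. The named genes were all 9 members, at most 3 further list genes per direction with the largest change among those called, and the 3 nearest genes by correlation. Of 43 list genes, 42 were found. Intervals and floors cover counting error only.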

Additional observations from a re-analysis of the deposited data

Results flagged for a closer look

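Barcodes of at most 100 UMIs, which are taken as droplets without a cell and enter no comparison, held UMIs of all 9 genes above the level of the sham samples. Values are UMIs per 1000000 UMIs of these barcodes (CPM), given as the lower of the 2 day 7 samples beside the highest sham sample. Lag3 was at 252.8 CPM against 16.9 CPM (with library 2 of ctrl day 7 alone at 12.8 CPM and library 2 of treat day 7 at 53.8 CPM), Ctla4 at 26.7 against 1.58 CPM, Icos at 25.5 against 2.31 CPM and Tnfrsf4 at 11.2 against 0.566 CPM. Havcr2 was at 9.61 against 4.87 CPM, Cd274 at 6.63 against 2.15 CPM and Pdcd1 at 6.58 against 1.02 CPM. Tigit was at 3.09 against 0.209 CPM and Foxp3 at 0.792 against 0.226 CPM. The estimated share of such free RNA was 0% to 5.00% of the UMIs of T-like cells over the libraries.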

How the results depend on the processing

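The 9 calls of members in T-like cells were recomputed under 198 alternatives in all, of which 183 kept the direction and the call and 15 kept the direction without the call. Elsewhere calls were lost in 148 of 440 over all cells, 44 of 100 in macrophage or monocyte-like, 42 of 134 in BEC-like and 35 of 189 in NK-like cells, and from 4 of 42 to 7 of 24 in the other classes. Outside these, the class levels moved by less than the spread between samples in 33 of 33 alternatives. Of the 9 members, 4 were called on day 7 in T-like cells. With ctrl and sham samples only, 2 were called, and leaving out 1 sample gave 1 to 5, the lowest without ctrl day 7. Over all cells 8 were called on day 7. With ctrl and sham only, or with treat and sham only, 0 were called, where the spread comes from the sham samples alone. Leaving out 1 sample gave 1 to 9. Between the arms, DESeq2's Wald test called Foxp3 over all cells, and leaving out 1 sample gave 0 to 0 calls over all cells and in T-like cells.

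Reversals touched only members that were not called, and the cause was not tested. For Cd274 in T-like cells the day 7 log2 fold change was -0.27 with ctrl and sham only and ranged from -0.42 to 0.90 with 1 sample left out. For Icos on day 7 it was 0.19 with no filter on low counts, 0.12 with each library as its own sample, 0.12 with treat and sham only and 0.57 in cells gated by 2 Cd3 UMIs, and ranged from -0.18 to 0.11 with 1 sample left out. Between the arms, Cd274 was at -0.13 with each library as its own sample, -0.038 with doublets kept and -0.056 with no day term, and ranged from -0.48 to 0.70 with 1 sample left out. Lag3 was at -0.16 with no day term, and Tigit ranged from -0.12 to 0.40. Tigit on day 7 was called at 2.06 in the Cd3 gate and 1.68 without ctrl day 1.

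No paired analysis was possible because the number of a sham sample marks no animal, batch or day shared with a transplanted sample, and the day that ctrl and treat samples share was already a term of the fit. With 84 to 212 T-like cells per sham sample, members with few sham UMIs, such as Tigit and Havcr2, were measured with wide counting error.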
